A study of Mus musculus with 3 samples.

Results

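Duodenal-type enterocytes are the intestinal epithelial cells that carry transcripts typical of the first stretch of the small intestine, and they were examined here in single-cell RNA sequencing libraries of mice with or without the transcription factor Arid3a. Barcodes with 1000 or more genes detected were kept, provided that mitochondrial genes gave no more than 15% of the unique molecular identifiers (UMIs, which count captured transcripts). A kept cell was a member when at least 4 of the 6 genes Akp3, Slc40a1, Tmprss15, Otop3, Sult6b2 and Gm2061 had a UMI, and when more of these were detected than of the 6 opposing genes Cubn, Slc5a4b, Dnase1, Bst1, Leap2 and Ace. The rule gave 602 members among 5594 kept cells (10.8%), which in turn came from 25554 barcodes. The values of these 12 genes therefore chose the cells, and their levels below are a description without a test.

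The libraries were Arid3a cKO 1, Arid3a cKO 2 and WT, 3 in all. All animals carried VillinCreERT2, a Cre recombinase driven in the intestinal epithelium and switched on by tamoxifen, and in the cKO animals it removed a floxed Arid3a. Tamoxifen was given to mice 8 to 10 weeks old and tissue was taken 1 month after the first injection. Living Epcam-positive, CD45-negative and CD31-negative cells were sorted from isolated crypts, and a further WT library named in the design text was not analysed here. The sources do not say whether a library came from 1 animal or from a pool. Every p-value therefore measures only the spread between these libraries, estimated with information from other genes.

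The small intestine divides its absorptive work along its length. Enterocytes near the stomach take up calcium and iron: S100g binds calcium inside the cell, the pump Atp2b1 moves calcium out through the basal membrane, and ferroportin (Slc40a1) exports iron to the blood. The same region activates pancreatic trypsinogen through the protease enteropeptidase (Tmprss15) and is patterned by the homeobox factor Pdx1, whereas the receptor Cubn and the bile acid transporter Slc10a2 belong to more distal segments.

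Each set of 3 values below gives the cKO libraries by number and then WT. Members had a median depth of 34942.5, 38393 and 32229 UMIs per cell, and their UMIs summed to 8349721, 8812145 and 4657787. Levels are given as CPM, the UMIs of a gene relative to all UMIs of the cells named, on the usual counts-per-million scale. Member barcodes were shared between libraries in 1 case, between Arid3a cKO 1 and WT. The targeted gene was nearly undetected: 2, 11 and 8 Arid3a UMIs were found in members (0.240, 1.25 and 1.72 CPM, adjusted p = 0.693), too few to check the genotypes within these cells, and reads from the floxed exons were not counted apart.

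As a comparison, cells with the mirror-image rule were taken, with at least 4 of the 6 opposing genes and more of these than of the duodenal 6. These 1231 Cubn-type cells numbered 443, 307 and 481. The calcium-binding protein S100g, which the rule did not use, stood at 5616, 6962 and 3883 CPM in members and at 233, 262 and 208 CPM in Cubn-type cells. The 3 member values lay far above the 3 Cubn-type values, with log2 ratios of CPM + 5 within a library of 4.56, 4.70 and 4.19. The homeobox factor Pdx1 stood at 84.8, 72.7 and 50.9 CPM in members against 13.4, 12.5 and 10.1 CPM in Cubn-type cells. The homeobox factor Meis2 was at 49.3, 47.7 and 34.4 CPM in members and at 3.54, 3.93 and 3.23 CPM in Cubn-type cells. The forkhead factor Foxq1 was at 67.7, 79.1 and 48.7 CPM against 17.5, 19.7 and 9.51 CPM. Meis2 and Foxq1 were named because they were among the 10 genes with the largest such ratios in all libraries, so their separation follows from that choice.

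The calcium pump Atp2b1 reached 669, 641 and 532 CPM in members and 163, 165 and 148 CPM in Cubn-type cells. The brush-border alkaline phosphatase Alpi reached 1369.9, 1501 and 1336 CPM in members against 541, 602 and 534 CPM. The regenerating-islet protein Reg1, a secreted lectin-like protein, stood at 22121, 20290.1 and 16907 CPM against 9418, 8874 and 6555 CPM. Ferritin heavy chain (Fth1), the iron-storage subunit, was also higher in members, at 33600.4, 35062 and 28205 CPM against 16144, 19519 and 15061 CPM. Among 4812 genes outside the rule with a mean of at least 20 CPM, 16 were at least 2-fold higher and 17 at least 2-fold lower in members of all 3 libraries. The cells were divided by the same libraries' transcripts, so this contrast carries no test.

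Among the genes that were lower in members, the antimicrobial lectin Reg3a stood at 127, 159 and 155 CPM in members and at 954, 757 and 632 CPM in Cubn-type cells. The fatty acid receptor Cd36 was at 24.4, 21.9 and 17.4 CPM against 87.1, 76.9 and 54.6 CPM, and the selenium carrier Selenop at 509.8, 604 and 465 CPM against 1750.0, 1747 and 1219 CPM. Apolipoprotein Apoa4, a component of chylomicrons, was at 2007, 2684 and 2133 CPM against 6495, 6569 and 4596 CPM. The dicarboxylate transporter Slc13a2, the dipeptidase Cndp2 and the amino acid transporter Slc36a1 were also among the 10 lowest, with log2 ratios of CPM + 5 between -1.46 and -2.17 over the 3 libraries. For the list of 15 peptide and amino acid uptake genes, the median log2 ratio of members to Cubn-type cells was -0.98, -0.76 and -0.71, and for the 20 fat absorption genes it was -0.71, -0.58 and -0.53.

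**Figure D1:**
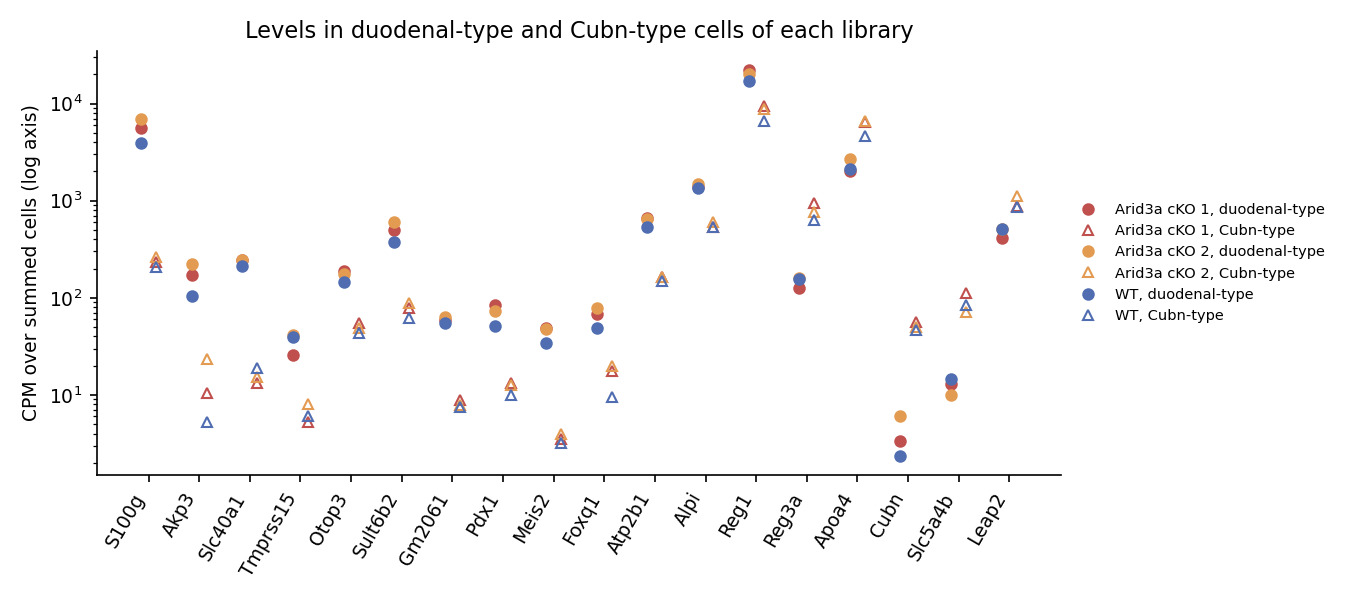
Level of each gene on a log axis (CPM over summed cells) in duodenal-type cells (filled circles) and Cubn-type cells (open triangles), 1 point per library and no error bar because each point is a sum over cells. S100g, Pdx1, Meis2, Foxq1, Atp2b1, Alpi and Reg1 lie higher in duodenal-type cells of all 3 libraries and Reg3a and Apoa4 lower, while the 6 duodenal and 3 of the opposing rule genes (Cubn, Slc5a4b, Leap2) differ because the rule chose them.

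The rule genes themselves had the following levels. The alkaline phosphatase Akp3 was at 173, 222 and 103 CPM in members and at 10.5, 23.3 and 5.22 CPM in Cubn-type cells. Ferroportin (Slc40a1) was at 246, 246 and 213 CPM against 13.3, 15.5 and 18.8 CPM. The proton channel Otop3 was at 188, 176 and 145 CPM, the sulfotransferase Sult6b2 at 499, 607 and 379 CPM, enteropeptidase at 25.9, 41.0 and 39.7 CPM and the lincRNA Gm2061 at 59.0, 63.8 and 55.6 CPM. WT was the lowest library for each of the 6 except enteropeptidase, for which Arid3a cKO 1 was the lowest. The opposing genes were still present in members: a median of 3 of the 6 were detected in each library, and 35 members had none.

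The label was checked against genes that the rule did not use. Of 10 general enterocyte markers all 10 had UMIs in each library, with a summed level of 37057 to 46227 CPM in members and 61437 to 77526 CPM in Cubn-type cells. The ileal genes Fabp6 and Slc10a2 were below 1 CPM in members of every library. S100g and Pdx1 were higher in members than in Cubn-type cells, as the values above show. The list of 4 proximal intestine genes went against the name, with a median log2 ratio of members to Cubn-type cells of -1.25, -0.92 and -0.89. Of these, lactase (Lct) stood at 241, 333 and 329.8 CPM against 712, 729 and 659 CPM and the fatty acid binding protein Fabp1 at 15022, 16953 and 13664 CPM against 29286, 28030.1 and 23567 CPM, and Apoa4 was lower too, while the factor Gata4 stood at 59.6, 54.6 and 58.4 CPM against 43.8, 38.7 and 49.97 CPM. In addition, the duodenal calcium channel Trpv6 (0.479, 0.794 and 0.215 CPM) and the ferric reductase Cybrd1 (1.08, 2.27 and 0.215 CPM) were at or near 0, and Onecut2, a duodenal transcription factor, was at 248.6, 250.2 and 245 CPM against 137, 142 and 143 CPM in Cubn-type cells. The study's methods describe crypts of the proximal jejunum, so the name stands here for the rule and not for a dissected segment or a settled identity.

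S100g lies on chromosome X from 162961992 to 162964599 on the minus strand of GRCm38 and is protein-coding. Akp3 (chromosome 1, 87124973 to 87127912, plus strand) and Alpi (chromosome 1, 87098002 to 87101606, minus strand) are protein-coding neighbours with 23366 bases between them. Pdx1 lies on chromosome 5 from 147269959 to 147275848 on the plus strand and Otop3 on chromosome 11 from 115334731 to 115346927 on the plus strand. Because these genes were high in the same cells, the 250 bases before the start of 4 of them are shown from RefSeq (GRCm38.p6), 5′ to 3′ on the strand of the gene. Capitals mark where a searched motif was found. The HNF4 motif was searched as CAAAGTCCA on both strands. For HNF1, part of its site was searched, with the letters GTTAAT. The core bound by homeobox factors was searched as TAATTA. The GATA motif was searched as AGATAA, and all 4 on both strands.

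S100g, chrX:162964600-162964849, minus strand: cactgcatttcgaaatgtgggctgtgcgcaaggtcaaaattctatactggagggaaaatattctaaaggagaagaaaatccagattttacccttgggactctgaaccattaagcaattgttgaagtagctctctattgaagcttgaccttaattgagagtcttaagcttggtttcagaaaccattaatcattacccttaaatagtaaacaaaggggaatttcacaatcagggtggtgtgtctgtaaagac
Akp3, chr1:87124704-87124953, plus strand: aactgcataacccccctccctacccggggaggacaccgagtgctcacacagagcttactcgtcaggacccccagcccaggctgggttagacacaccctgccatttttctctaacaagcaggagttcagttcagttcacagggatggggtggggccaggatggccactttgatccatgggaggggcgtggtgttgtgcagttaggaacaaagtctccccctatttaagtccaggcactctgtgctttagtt
Alpi, chr1:87101607-87101856, minus strand: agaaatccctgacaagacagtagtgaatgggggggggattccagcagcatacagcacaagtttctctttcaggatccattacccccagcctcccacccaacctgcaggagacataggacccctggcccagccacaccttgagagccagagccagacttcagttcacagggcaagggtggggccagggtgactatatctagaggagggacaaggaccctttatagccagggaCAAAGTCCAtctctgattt
Otop3, chr11:115334481-115334730, plus strand: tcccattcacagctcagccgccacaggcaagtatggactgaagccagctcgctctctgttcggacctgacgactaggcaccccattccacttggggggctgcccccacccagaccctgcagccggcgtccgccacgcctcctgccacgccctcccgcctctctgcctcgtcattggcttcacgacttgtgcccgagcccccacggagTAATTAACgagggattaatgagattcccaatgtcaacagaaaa

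The windows of S100g and Akp3 held none of the 4 motifs. That of Alpi held CAAAGTCCA, which 0.384% of 32851 promoter windows of the same length held. That of Otop3 held TAATTA and, overlapping it on the other strand, GTTAAT, found in 4.84% and 6.43% of all windows. GTTAAT also occurred in the windows of the duodenal rule gene Tmprss15 and of the opposing gene Dnase1. AGATAA was found in 9.99% of windows and, among the 4 duodenal rule genes with a RefSeq window, in Sult6b2. A match is a run of letters and not a shown binding site, and a window without one says nothing about the factors.

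Members differed widely among themselves. S100g per cell had a median of 2901, 2839 and 2545 CPM, with lower quartiles of 1079, 1016 and 564 CPM and maxima of 57551, 66370.5 and 29996 CPM. The maxima were higher in both cKO libraries. No S100g UMI was found in 2, 2 and 3 members. Pdx1 per cell had a median of 74.1, 66.0 and 41.9 CPM. The 5 highest cells gave 15.5%, 18.2% and 17.8% of all S100g UMIs of the members.

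Within members thinned to 26000 UMIs (200, 190 and 94 cells), Spearman's rho of S100g with other genes was highest for Alpi, at 0.60, 0.63 and 0.68, among the 17 genes compared. It was 0.55, 0.57 and 0.59 for Slc40a1, 0.51, 0.57 and 0.52 for Akp3 and 0.37, 0.32 and 0.41 for Pdx1. It was lower for enteropeptidase (0.31, 0.25 and 0.11) and Apoa4 (0.21, 0.17 and 0.21), and for the antimicrobial lectin Reg3b it was -0.13, -0.04 and -0.31. These are descriptions across cells, which share their library and are not replicates.

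S100g was higher with a larger number of duodenal rule genes detected. In cells with 4 detected, S100g stood at 2692, 2347 and 2054 CPM, with 5 at 6620, 5677 and 4009 CPM and with 6 at 9012, 11835 and 5919 CPM. WT was the lowest library at each of these steps. Cells just outside the rule, with 3 detected and more than of the opposing genes, numbered 118, 83 and 52 and had 1515, 1474 and 848 CPM. The cells with 4 or more duodenal genes that were not members were 132 with a tie and 143 with more opposing genes. S100g UMIs also occurred outside these cells, with 116, 84.0 and 58.7 CPM in kept cells that had none of the 6 genes. In cells thinned to 26000 UMIs, 99.5%, 98.4% and 97.9% of members had an S100g UMI against 73.7%, 68.9% and 59.0% of Cubn-type cells (without thinning 99.2%, 99.1% and 97.7% against 74.9%, 72.6% and 58.6%).

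**Figure D2:**
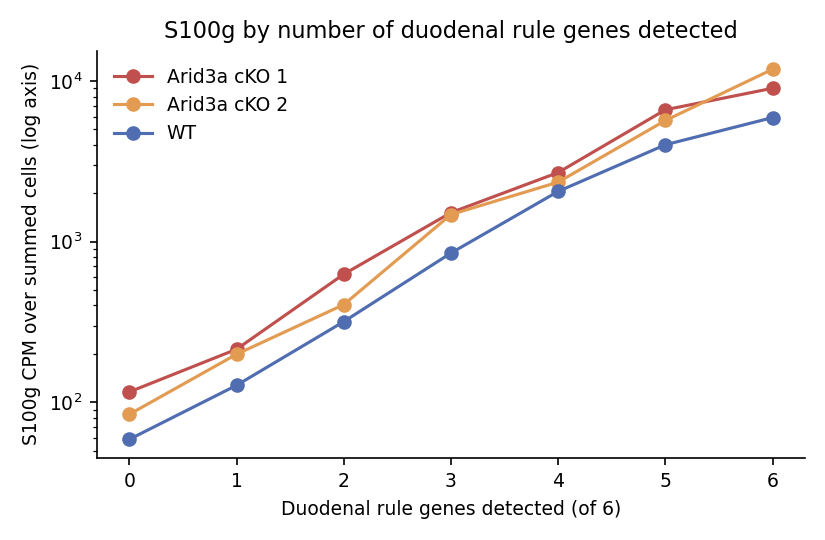
S100g level on a log axis (CPM over summed cells) by the number of duodenal rule genes detected in a cell, 1 line per library. Cells with 1 or more are those with more duodenal than opposing genes, members are at 4 to 6, and the WT line lies below both cKO lines at each number.

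Of 2134 kept cells of Arid3a cKO 1, 236 were members (11.1%, 95% interval 9.76 to 12.5%). Of 1550 of Arid3a cKO 2, 235 were (15.2%, 13.4 to 17.0%), and of 1910 of WT, 131 were (6.86%, 5.77 to 8.09%). The exact Clopper-Pearson intervals cover counting error only. WT had the lowest interval, overlapping neither cKO interval, and averaging the cKO shares gave a difference of 6.25 percentage points, while the intervals of the cKO libraries did not overlap each other either. With every cell thinned to 21000 UMIs before the rule was applied, the shares were 10.2%, 13.9% and 6.62%, with 392, 276 and 429 shallower cells left out. With at least 3 of the 6 genes they were 16.6%, 20.5% and 9.58%, and with at least 5 they were 6.42%, 11.2% and 4.55%, where the intervals of Arid3a cKO 1 and WT overlapped. Cubn-type cells made up 20.8%, 19.8% and 25.2%. With 1 WT library a share has no test, and a change in how many cells form cannot be told apart from a change of the rule genes within cells.

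**Figure D3:**
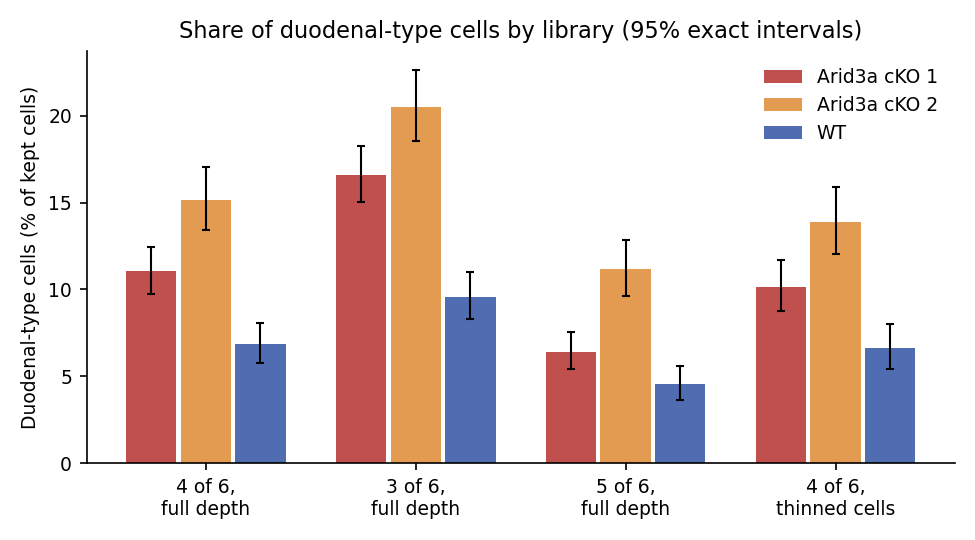
Share of kept cells that were duodenal-type in each library, for the rule with 4, 3 or 5 of the 6 genes and for cells thinned to 21000 UMIs, with 95% exact intervals for counting error. WT is the lowest library under all 4 rules, and its interval overlaps that of Arid3a cKO 1 with 5 of 6.

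To ask how loss of Arid3a changed the transcripts of these cells, UMIs were summed over members per library and 2 cKO sums were compared with 1 WT sum in edgeR, with the 12 rule genes left out. The spread then rests on the 2 cKO libraries and on values borrowed across genes, and the WT library is assumed to vary like them. A small adjusted p therefore does not by itself measure agreement between libraries. At an adjusted p of at most 0.05, 54 of 11383 genes (0.474%) were higher and 117 (1.03%) were lower in cKO, and the median log2 fold change over all genes tested was 0.0041. Both counts were unstable, and without a filter on low counts no gene was called. With the top 5% of doublet scores left out they were 8 and 20, and with a limit of 10% mitochondrial UMIs they were 5 and 14. Of the 171 genes called, 11 were called in 11 of 12 alternatives.

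A few members carried transcripts of other epithelial cell types. In 13 of the 602 members (6, 4 and 3) over 1% of UMIs came from the marker list of goblet, Paneth, enteroendocrine or tuft cells: 10 exceeded it for goblet markers, 5 for Paneth, 1 for enteroendocrine and none for tuft markers, some cells passing for more than 1 list. These cells had 30792 to 178316 UMIs, and 5 of them were among the 5% with the highest doublet scores. The 7 goblet markers summed to 3089, 5354 and 1614 CPM in all members and to 190, 153 and 318 CPM without these cells. The 6 Paneth markers summed to 7436, 214 and 29282 CPM, and to 258, 209 and 242 CPM without them. The 6 enteroendocrine markers summed to 34.4, 1564 and 53.0 CPM and to 29.4, 41.6 and 50.4 CPM, while the 5 tuft markers summed to at most 2.36 CPM. Leaving these cells out was an alternative chosen after the data were seen.

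The genes with the largest called changes were mainly of this kind. Among the 12 largest rises, 9 took over 50% of their UMIs from these cells in at least 1 library, and among the 12 largest falls 11 did so. The goblet products Zg16 (905, 3343 and 107 CPM), Fcgbp (343, 371 and 34.6 CPM), Clca1 (109, 155 and 12.9 CPM), Tff3 (835, 1108 and 216 CPM), Muc2 (132, 166 and 45.9 CPM) and Agr2 (269, 92.3 and 40.8 CPM) were called higher in cKO, with log2 fold changes of 1.62 (Muc2) to 4.25 (Zg16). Without the 13 cells the direction turned for all 6. Zg16 then stood at 64.2, 56.0 and 110.4 CPM (log2 fold change -0.88) and Muc2 at 14.4, 9.59 and 27.3 CPM (-1.20). All 7 goblet markers then had a negative log2 fold change. These markers helped to choose the cells left out, so these values are a description without a test. A Muc2 UMI was found in 30.5%, 21.6% and 55.3% of thinned members (without thinning 38.98%, 30.2% and 62.6%) and in 22.4%, 20.5% and 51.1% of thinned Cubn-type cells. Where these UMIs came from was not tested.

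Paneth transcripts moved the other way. The defensin Defa24 stood at 5343, 141 and 23347 CPM and Defa17 at 414, 18.2 and 2974 CPM, and these and other defensins, with the lectin-like Mptx2 (6.23, 3.18 and 178 CPM) and the protease Mmp7 (13.1, 0.454 and 90.8 CPM), were called lower in cKO. Without the 13 cells Defa24 stood at 174, 141 and 171 CPM, and the median log2 fold change of the 6 Paneth markers was -0.012. The Paneth markers also helped to choose the cells left out, so this too is a description. The defensin genes are near-identical copies, so reads may be split between them. Colipase (Clps), high in members against Cubn-type cells, drew 97.2%, 96.2% and 99.4% of its UMIs from the same cells and stood at 67.3, 30.1 and 361 CPM with them and at 2.00, 1.16 and 2.33 CPM without them. The enteroendocrine peptide Cck, called higher in cKO, stood at 4.43, 859.7 and 9.88 CPM and took 0%, 99.6% and 23.9% of its UMIs from these cells.

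**Figure D4:**
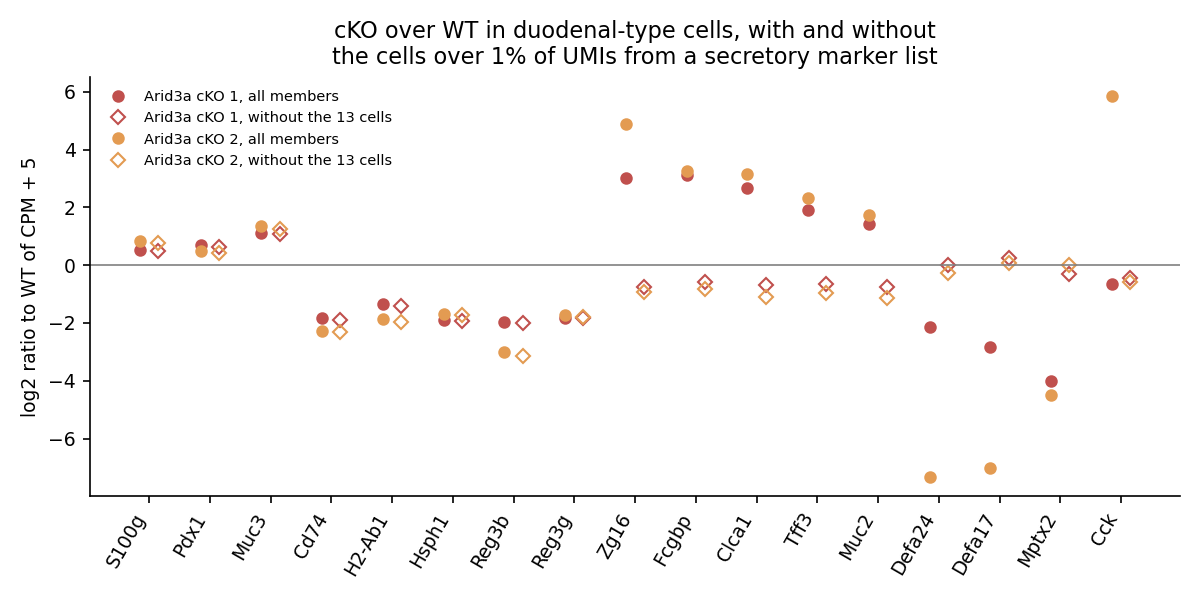
Log2 ratio to WT of CPM + 5 in members of each cKO library, with all members (circles) and without the 13 cells with over 1% of UMIs from a secretory marker list (diamonds). The goblet genes change sign, the Paneth genes and Cck move close to 0, and S100g, Pdx1, Muc3, Cd74, H2-Ab1, Hsph1, Reg3b and Reg3g stay where they were.

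Apart from these genes, calls in the lists of MHC class II, interferon-response and heat shock genes were all toward lower levels in cKO members. Of the 7 MHC class II genes, all tested, 6 fell and none rose (over all genes tested 1.03% fell and 0.474% rose), with a list median of -1.67 against 0.0041 over all genes. Cd74, the invariant chain that escorts class II molecules, stood at 76.3, 54.6 and 284 CPM (log2 fold change -2.20 ± 0.140 SE, adjusted p = 1.2e-12). Both cKO values lay far below WT. Of 12 alternatives, Cd74, H2-Aa and H2-Ab1 were each called in 11 and H2-Eb1 in 9, whereas H2-DMa and H2-DMb1 were each called in 5. The class II chains H2-Ab1 (50.9, 34.2 and 138 CPM), H2-Aa (9.70, 6.24 and 33.1 CPM) and H2-Eb1 (28.6, 18.6 and 60.3 CPM) fell, with log2 fold changes of -1.78, -2.13 and -1.44. The T cell markers summed to at most 0.359 CPM in members, with Ptprc (CD45) at 0 in all 3 libraries, and the B and plasma cell markers to at most 0.120 CPM. Cd74 was also lower in Cubn-type cells of the cKO libraries, at 69.2, 47.1 and 407 CPM (log2 fold change -2.78, adjusted p = 0.00021).

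Of 15 tested genes of the MHC class I and interferon list, 6 fell and none rose, with a median of -0.45. The antiviral protein Ifit1 stood at 13.8, 9.76 and 43.6 CPM (-1.97 ± 0.175, adjusted p = 3.01e-09), and the interferon-induced GTPase Igtp at 14.4, 5.33 and 39.7 CPM (-2.10 ± 0.252, adjusted p = 1.14e-06). Zbp1, Ifit3 and Tap1 were among the others that fell. Of 12 alternatives, Ifit1 was called in 11, Zbp1 in 10 and Igtp in 8, but Ifit3 and Tap1 each in 5. The class I chains B2m, H2-K1 and H2-D1 did not pass the test, with log2 fold changes of -0.31, -0.31 and -0.18.

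Of 11 tested heat shock genes, 4 fell and none rose, with a median of -0.62. The chaperone Hsph1 stood at 15.7, 18.8 and 71.5 CPM (-2.12 ± 0.144, adjusted p = 5.51e-12), Hsp90aa1 at 227, 189 and 362 CPM (-0.88, adjusted p = 0.000263) and Hspa8 at 608, 721 and 1039.5 CPM (-0.72, adjusted p = 0.0132). Hsp90ab1 was the fourth. Of 12 alternatives, Hsph1 was called in 11 and Hsp90aa1 in 9, but Hspa8 in 6 and Hsp90ab1 in 5. Of Cubn-type cells thinned to 26000 UMIs, 17.2%, 22.5% and 51.7% had an Hsph1 UMI. Of all other kept cells, thinned to the same depth, 52.5%, 60.5% and 85.7% had one. Lower Hsph1 in both cKO libraries was therefore not confined to members, and these shares were not tested. Of 4 transcripts linked to damaged cells, 2 had a positive and 2 a negative log2 fold change (median -0.043). The 4 damage-linked transcripts summed to 39567, 39727 and 56699 CPM, of which only Gm42418 passed the test (34393, 33956 and 51154 CPM, log2 fold change -0.66), and the median mitochondrial share was 5.27%, 5.14% and 6.47% of UMIs. Their part in the heat shock difference was not tested.

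Of 10 villus base genes, 3 fell and none rose, with a median of -0.14. The antimicrobial lectins Reg3b (639, 306 and 2517 CPM, log2 fold change -2.50 ± 0.217, adjusted p = 1.79e-09) and Reg3g (465, 491 and 1647 CPM, -1.86 ± 0.155, adjusted p = 6.73e-10) and the glutathione peroxidase Gpx2 (179, 183 and 327 CPM, -0.93 ± 0.137, adjusted p = 4.46e-05) lay lower in both cKO libraries, whereas Reg1 did not pass the test (0.25, adjusted p = 0.524). In Cubn-type cells Reg3b was also lower in both cKO libraries, at 3443, 2051 and 5520.0 CPM, but did not pass the test (adjusted p = 0.193). With all cells, its effect was not called unequal between members and Cubn-type cells. Of all other kept cells, thinned to 26000 UMIs, 35.9%, 29.2% and 69.9% had a Reg3b UMI. A Reg3g UMI was found in 72.0%, 75.3% and 95.7% of thinned members and in 83.1%, 73.0% and 98.6% of thinned Cubn-type cells. Without a filter on low counts, the member calls of Reg3b, Reg3g and Gpx2 were all lost. Reg3b also lost its call with the 10% mitochondrial limit and by the DESeq2 Wald test. Gpx2 also lost its call with the 10% limit and with at least 3 of 6 rule genes. None of the 9 tested villus tip genes passed the test.

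Among the rises that did not come from the 13 cells, the membrane mucin Muc3, part of the brush-border glycocalyx, stood at 162, 192 and 72.6 CPM (log2 fold change 1.21 ± 0.148, adjusted p = 1.49e-06). It lay higher in both cKO libraries and was called in 11 of 12 alternatives, as were the endosomal protein Wdfy1 (41.3, 39.6 and 12.7 CPM, log2 fold change 1.60) and Mir6236 (95.1, 80.8 and 32.4 CPM, 1.36). The other 9 tested brush border genes did not pass the test. Klf2, a zinc-finger factor of the immediate early list, was at 26.6, 21.9 and 8.37 CPM (1.45, adjusted p = 8.78e-05), and the other 13 genes of that list did not pass, with a median of 0.10 over all 14. Named after their values were seen, the cytochrome Cyp1a1 (50.4, 44.0 and 20.8 CPM, 1.10, adjusted p = 3.61e-05) and the copper chaperone Sco2 (79.4, 88.1 and 39.7 CPM, 1.00, adjusted p = 2.98e-05) rose in the same fit. Klf2 lost its call without a filter on low counts, without the top 5% of doublet scores and with the 10% mitochondrial limit. Its call was also lost with at least 3 of 6 rule genes and by the DESeq2 Wald test. The largest called fall outside the secretory genes was mt-Nd3, at 9.58, 12.3 and 355 CPM. It has to be read beside Gm28438, at 956, 796 and 0 UMIs out of 8349721, 8812145 and 4657787 member UMIs. These counts are not CPM and cannot be added to the mt-Nd3 values. Of the aligned bases of these genes, 344 of 345 are identical, so reads between them cannot be told apart with confidence. A count of 0 allows up to 0.644 CPM in WT members.

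S100g itself was higher in cKO members, with a log2 fold change of 0.62 ± 0.157 SE (1.54-fold, adjusted p = 0.0341). Both cKO libraries lay above WT, at log2 ratios of CPM + 5 of 0.53 and 0.84. The call was lost in 8 of 12 alternatives, in which the log2 fold change stayed between 0.46 and 0.73, and the adjusted p ranged from 1.08e-07 to 1.00 over all 12. In Cubn-type cells S100g did not pass the test (0.28, adjusted p = 0.735), and the difference between the 2 effects, 0.34, did not pass either (adjusted p = 1). Pdx1 was called higher, with a log2 fold change of 0.55 ± 0.138 (adjusted p = 0.0296), and was called in 4 of 12 alternatives. Foxq1 (0.52, adjusted p = 0.0679), Meis2 (0.42, adjusted p = 0.206), Atp2b1 (0.22, adjusted p = 0.714) and Alpi (0.028, adjusted p = 0.977) did not pass the test. Because members were chosen by genes that are high in the same cells, S100g and Pdx1 are not independent of the number of rule genes detected.

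Few of the remaining absorption genes passed the test, but over all genes tested only 0.474% were called higher and 1.03% lower. Counts this small do not set the lists below apart from other genes. Of 7 tested calcium absorption genes only S100g passed, and the receptor Vdr stood at 212, 217 and 195 CPM. None of the 12 tested iron genes passed, and the iron importer Slc11a2, at 70.9, 60.03 and 86.7 CPM, came nearest (-0.48, adjusted p = 0.0518) and was called lower without the 13 secretory-rich cells (-0.47, adjusted p = 0.0315). None of the 20 fat absorption genes passed, with log2 fold changes from -0.34 to 0.45 and a median of -0.0026. None of the 11 sugar genes passed (from -0.56 to 0.17, median -0.06). Of 15 peptide and amino acid uptake genes, Slc36a1 fell (13.5, 11.7 and 24.9 CPM, log2 fold change -1.06, adjusted p = 0.000918) and the median was -0.12. Slc36a1 was called in 6 of 12 alternatives, and without the 13 cells the peptidase Enpep was called lower as well (-0.43, adjusted p = 0.0208). Of 20 tested intestinal and regional transcription factors only Pdx1 passed. Hnf4a stood at 93.9, 97.0 and 118 CPM (-0.38, adjusted p = 0.16) and Cdx2 at 102, 89.8 and 73.2 CPM (0.31, adjusted p = 0.365). Genes that missed the threshold are not shown to be equal, since 50.5% of simulated 2-fold changes were found in this design. The simulated counts followed the fitted trend of spread without scatter between genes around it, so recovery in the data may be lower.

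**Figure D5:**
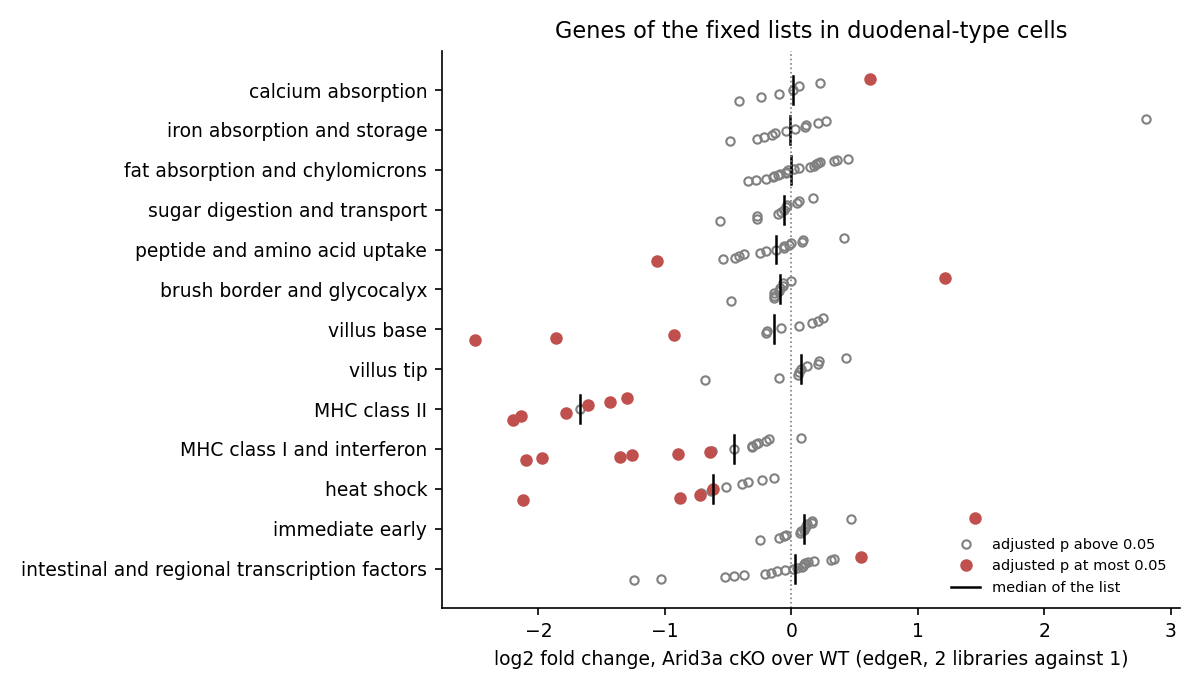
Log2 fold change of each tested gene of 13 lists in duodenal-type cells (edgeR, 2 cKO libraries against 1 WT library), with genes at an adjusted p of at most 0.05 in red and a bar at the median of the list. All tested MHC class II and heat shock genes and 14 of 15 interferon-list genes lie to the left of 0, S100g, Muc3, Klf2 and Pdx1 are the called genes on the right, and the open point near 2.81 is Cybrd1, with at most 2.27 CPM in any library.

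Whether the genotype effect in members was unequal to that in Cubn-type cells was tested in 1 fit over 6 sums with library as a block. Of 12056 genes, 9 (0.0747%) were called. Of these, 8 had a more positive effect in members: the calcium-binding S100a6 and the secretory genes Clca1, Muc2, Chgb, Scg2, Tff3, Gcg and Fcgbp. The ninth was the water channel Aqp8, at 68.0, 75.5 and 100.05 CPM in members and at 105, 103 and 63.5 CPM in Cubn-type cells, so that both cKO libraries lay below WT in members and above it in Cubn-type cells (log2 difference -1.29 ± 0.139, adjusted p = 0.0423). A positive difference need not be a rise in members, since a high WT level in Cubn-type cells gives one too. For Gcg, whose values are given below, WT Cubn-type cells had the highest of the 6 levels. Cells rich in secretory markers numbered 6, 4 and 3 among members and 5, 10 and 28 among Cubn-type cells. Without the cells rich in secretory markers in both groups, 12 genes were called, of which 1 of the former 9, Aqp8, was called again (-1.23, adjusted p = 2.02e-05). Clca1, Muc2, Chgb, Tff3 and Fcgbp are among the markers that chose the cells left out, so for them the omission is no test. In that fit Reg3b (-1.50) and Ifit1 (-1.37) had a more negative effect in members than in Cubn-type cells. Cd74 went the other way (0.66, adjusted p = 0.00876), its fall being smaller in members than in Cubn-type cells, and of the 12 calls 6 were positive and 6 negative.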

How the data were processed

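Single-cell 3′ libraries of 2 Arid3a cKO samples and 1 WT sample were analysed. The authors deposited filtered matrices of UMI counts per gene and cell, made with CellRanger 5.0.0 per the file headers, without further normalization. The submitters' processing notes name the human builds GRCh38 and hg19, and the mouse build of these libraries is not given in the sources used here. Of 51912 feature identifiers, 51633 (99.5%) matched GENCODE M21 (GRCm38), from which positions were taken.

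The members and gene lists were chosen with earlier results of these data known. Counts were summed per library over members and tested with edgeR 4.0.16 in R 4.3.3 (TMM, filterByExpr, quasi-likelihood, Benjamini-Hochberg adjusted p at most 0.05), leaving out the 12 rule genes. This fit has 1 residual degree of freedom. The interaction was fitted on 6 sums with library as a block, and members against Cubn-type cells were described by log2 ratios of CPM + 5. Cells were handled in Python 3.11.15 with scanpy 1.11.5. Doublets were kept, and Scrublet called 9, 6 and 4 members. Named genes were the fixed lists, up to 12 called genes per direction with the largest change (mean of at least 20 CPM, both cKO libraries on the same side of WT), up to 10 per direction between members and Cubn-type cells, and up to 8 called interaction genes; Scg2 and genes named without the secretory-rich cells fall outside it. Alternatives were DESeq2 1.42.0 (size factors and Wald test), no count filter, other cell limits and rule thresholds, thinned cells, equal cell weights, no doublet-like cells, no mitochondrial genes, omitted libraries and, added later, no secretory-rich cells. On simulated data for cKO against WT in members (11395 genes, 200 changed), 50.5% of 2-fold changes (7 false calls) and 84.5% of 4-fold changes (14 false calls) were recovered. The simulated spread was the fitted trend, the same for cKO and WT and without scatter between genes around it.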

Additional observations from a re-analysis of the deposited data

Results flagged for a closer look

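The 9 genes below stood out because their genotype effect in duodenal-type cells differed from that in Cubn-type cells of the same libraries in the edgeR fit with library as a block (adjusted p at most 0.05). As log2 differences, effect in members minus effect in Cubn-type cells, the goblet-linked genes had 3.79 (Clca1), 2.56 (Muc2), 2.83 (Tff3) and 4.17 (Fcgbp). The enteroendocrine genes had 5.06 (Chgb), 8.40 (Scg2) and 11.2 (Gcg), and the calcium-binding S100a6 had 3.96. The water channel Aqp8 had -1.29. Without the cells that held over 1% of UMIs from a secretory marker list, Aqp8 alone of the 9 was called again. Clca1, Muc2, Tff3, Fcgbp and Chgb are on the lists that chose those cells, so for them this is no test. Gcg stood at 0.958, 8.06 and 0.215 CPM in members and at 1.27, 0.823 and 153 CPM in Cubn-type cells of Arid3a cKO 1, Arid3a cKO 2 and WT. The part of the secretory-rich cells in the other differences, beyond this omission, was not tested. No group had 4 or more samples, so samples far from their group were not sought.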

How the results depend on the processing

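No paired analysis was possible because WT holds 1 library, so only number 1 occurs in both genotypes. Counts of genes higher and lower in cKO members (54 and 117) became 0 and 0 without a filter on low counts in edgeR (770 genes at an unadjusted p under 0.05), 8 and 20 without the highest 5% of doublet scores, 13 and 34 with limits of 25% and 500 genes, 5 and 14 with a 10% limit, 11 and 24 with at least 3 of 6 rule genes, 163 and 226 with the rule on thinned cells, 15 and 32 with cells weighted equally, and 13 and 18 by the DESeq2 Wald test. They were 39 and 97 with DESeq2 size factors, 62 and 82 with at least 5 of 6, 60 and 133 without the 13 secretory-rich cells, and 56 and 112 without mitochondrial and damage-linked genes. Genes with unequal effects (9) became 33 with DESeq2 size factors and 57 with either other rule threshold. The S100g log2 fold change lost its call at 0.62 (DESeq2 size factors and, separately, the Wald test), 0.65 (no filter), 0.53 (doublet scores), 0.73 (25% limit), 0.52 (10% limit), 0.61 (3 of 6) and 0.46 (equal weights). Leaving out a cKO library gave 0.53 to 0.84 for S100g and 4.20 to 8.30 percentage points for the member share. Such omissions leave 1 library against 1, so gene counts could not be tested, and without WT there is no contrast.

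Directions turned without the secretory-rich cells for Muc2 (-1.20), Tff3 (-0.88), Fcgbp (-0.86), Agr2 (-1.34), Clca1 (-1.41), Zg16 (-0.88), Cck (-0.96), Sct (-1.03), Ang4 (1.18), Defa17 (0.20), Gm7861 (0.58) and Defa26 (1.26). With at least 3 of 6 they turned for Agr2 (-1.01), Chgb (-0.046) and Guca2a (-0.33). With at least 5 of 6 they turned for Spink4 (1.12), Ang4 (2.89), Defa17 (1.34), Defa24 (1.29), Gm7861 (0.51), Gm15292 (0.59), Defa23 (0.15), AY761184 (1.29), Mmp7 (0.72), Defa26 (1.05), Gm14851 (1.61), Defa3 (1.07), Defa29 (1.49) and Clps (1.77). With the rule on thinned cells they turned for Spink4 (2.20), Mptx2 (0.47), Ang4 (3.31), Defa17 (0.53), Defa24 (0.054) and Gm7861 (0.58). The cause was not tested. These are all 35 turned values among 772 values of 65 named genes, of which 412 kept direction and call and 325 kept direction only. The 25 list medians were recomputed from mean log2 ratios of CPM + 5 and CPM + 1. Of these 50 values, 21 moved by at least the standard deviation between the cKO libraries. The MHC class II median became -1.21 with CPM + 5 and -1.48 with CPM + 1. The class I and interferon median became -0.37 with either.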

Other observations

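The 4 genes below were named after their values were seen and stand for no wider group. The glutathione transferase Gstm1 stood at 264, 275 and 716 CPM in members of Arid3a cKO 1, Arid3a cKO 2 and WT (log2 fold change -1.49, edgeR adjusted p = 3.39e-08) and at 265, 249.2 and 611 CPM in Cubn-type cells. Without the cells rich in secretory markers, the cytochrome Cyp3a11 stood at 369, 489 and 827 CPM in members and at 530, 620 and 732 CPM in Cubn-type cells, and the genotype effect in members was more negative by 0.63 on the log2 scale (difference -0.63, adjusted p = 0.0206). The cytochrome Cyp2c29 stood at 16.3, 17.1 and 15.9 CPM in members and at 31.1, 38.1 and 12.9 CPM in Cubn-type cells (difference -1.37, adjusted p = 0.0144), so that its 3 member values lay close together.

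In the same fit Hmgcs1, an enzyme of cholesterol synthesis, stood at 90.2, 84.6 and 90.8 CPM in members and at 64.0, 51.0 and 104 CPM in Cubn-type cells (difference 0.78, adjusted p = 0.0108). The libraries of members lay close together and the cKO libraries of Cubn-type cells lay below WT.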
